A study of Sus scrofa with 2 samples.

Results

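Chemokines are small secreted proteins that draw leukocytes along concentration gradients, and they act through G protein-coupled receptors. Such ligands, 3 in number, and 1 receptor are described here in pig endometrium, the lining of the uterus: the CC chemokines CCL4 (ENSSSCG00025020949) and CCL5 (ENSSSCG00025020677), the C chemokine XCL1 (ENSSSCG00025044309) and the receptor CXCR4 (ENSSSCG00025056249). They were taken by symbol and are 4 of the 26881 feature rows counted, each on 1 row. In other mammals CCL4 and CCL5 attract T cells, NK cells and monocytes, and CCL5 acts on CCR1 among other receptors. XCL1 is made by activated NK and CD8 T cells and acts on XCR1, a receptor of cross-presenting dendritic cells. CXCR4 binds CXCL12, which guides and holds leukocytes in tissues, while ACKR3 removes CXCL12. Lymphocytes, NK cells among them, gather in the pig endometrium in early pregnancy.

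The series holds 2 single-cell libraries, titled endometrium2 (library 2) and endometrium1 (library 1), made from digested tissue on a droplet platform that counts transcript 3' ends. The design text describes 2 inseminated Yorkshire sows aged 3 years, 1 of them at day 13 (the endometrial receptive period, ER) and 1 at day 7 (the period before it, Pre-ER), each with tissue from both uterine horns. The sample labels do not say which library is which stage; the deposited matrix of library 2 is called ER and that of library 1 Pre-ER. Each library is thus 1 animal, so stage, animal and library preparation cannot be told apart, no test between libraries was possible, and all intervals below are 95% intervals that cover counting error only.

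Library 2 held 15093 barcodes and 87514969 unique molecular identifiers (UMIs, counts of distinct RNA molecules), with a median of 4335 UMIs per barcode, and library 1 held 10045 barcodes and 45388759 UMIs, with a median of 3431. After called doublets were removed, 12669 cells of library 2 and 8928 cells of library 1 remained. Only 48 barcodes occurred in both libraries. Cells were clustered without the 4 genes and without any other listed chemokine or receptor gene, and clusters were named from markers as "X-like". T or NK-like cells were 833 cells (6.58%) of library 2, in a cluster led by KLRK1, KLRB1, NCR1 and NKG7 and another led by SKAP1, gzmK and IL7R, and 477 cells (5.34%) of library 1, nearly all in 1 cluster led by RAC2, PTPRC and KLRK1. Of their 32 markers with a symbol, 32 were detected in library 2 and 30 in library 1, where CD3G and CTLA4 were at 0. Levels are given as CPM, the UMIs of a gene scaled to 1000000 UMIs of the class.

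Over all barcodes, CCL4 had 15357 UMIs in library 2 and 6035 in library 1, CCL5 had 17921 and 5192, CXCR4 had 6067 and 1749, and XCL1 had only 652 and 557. XCL1 was detected in 2.44% of barcodes of library 2 and 2.13% of library 1. The other 3 genes were each found in 11.5% to 15.6% of barcodes of library 2 and in 7.69% to 9.01% of library 1.

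The 4 genes did not share 1 source. CCL5 and XCL1 were genes of T or NK-like cells: these cells held 82.2% of all CCL5 UMIs in library 2 and 83.1% in library 1, and 82.9% and 87.1% of all XCL1 UMIs. CXCR4 was shared more widely, with 58.7% of its UMIs in T or NK-like cells of library 2 and 50.8% in those of library 1. Blood endothelial-like cells held 10.8% of CXCR4 UMIs in library 2 and 30.8% in library 1. Macrophage, monocyte or dendritic-like cells held 13.7% and 4.97%. By raw UMIs, CCL4 was not mainly a gene of T or NK-like cells. Only 32.4% of its UMIs in library 2 and 35.5% in library 1 lay in T or NK-like cells, and macrophage, monocyte or dendritic-like cells held more, 36.6% in library 2 and 44.5% in library 1, although they were 525 and 181 cells. These shares depended on the depth of each cell: with every cell thinned to 1000 UMIs, T or NK-like cells held 54.1% of CCL4 UMIs in library 2 and 53.8% in library 1.

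CCL4, an attractant of T cells, NK cells and monocytes, had 2374 CPM (2296 to 2453) in T or NK-like cells of library 2 and 1882 CPM (1824 to 1941) in macrophage, monocyte or dendritic-like cells of that library. In library 1 the order was the other way, with 2490.0 CPM (2374 to 2609.9) in T or NK-like cells and 3364 CPM (3225 to 3509) in macrophage, monocyte or dendritic-like cells. The intervals of these neighbours, which leave out spread between cells, did not overlap in either library. Blood endothelial-like cells came next in library 2, at 173.5 CPM (167 to 181), and below plasma cell-like cells in library 1, at 45.0 CPM (41.1 to 49.3). Every other named class of at least 50 cells had under 30 CPM in library 2 and, apart from the plasma cell-like cells at 157 CPM, under 20 CPM in library 1. Cells in clusters left unnamed had 141 CPM of CCL4 in library 2, where most of these 78 cells were a cluster led by cell cycle genes, and 29.7 CPM in library 1, where they were 734 cells.

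CCL5, a chemokine of activated T and NK cells, had 7127 CPM (6993 to 7263) in T or NK-like cells of library 2, which was 24.7-fold above the next class, and 5106 CPM (4939.8 to 5277) in those of library 1, which was 33.4-fold above the next. The next class was macrophage, monocyte or dendritic-like cells in both libraries, at 289 CPM in library 2 and 153 CPM in library 1. Below them the intervals of neighbouring classes overlapped in most cases, between 13.1 and 83.6 CPM in library 2 and between 9.38 and 50.3 CPM in library 1.

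XCL1, the dendritic cell attractant, was the least abundant of the 4 in T or NK-like cells. It had 257 CPM (232 to 284) in those of library 2, which was 26.1-fold above the next class, and 602 CPM (546 to 662) in those of library 1, which was 20.5-fold above the next. No other class of at least 50 cells reached 10 CPM in library 2. In library 1 only the macrophage, monocyte or dendritic-like cells did, at 29.4 CPM, and these were 19 UMIs in 6 cells. B cell-like and ciliated epithelial-like cells of library 2 and lymphatic endothelial-like cells of library 1 had 0 UMIs. A level of 3 UMIs, taken as the limit for a count of 0, would be 9.94, 0.677 and 4.26 CPM in these classes.

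CXCR4, the CXCL12 receptor, had 1739 CPM (1673 to 1807) in T or NK-like cells of library 2 and 1056 CPM (981 to 1135) in those of library 1. B cell-like cells were second in library 2, at 825 CPM (726 to 934) in 126 cells, and were only 6 cells in library 1. Macrophage, monocyte or dendritic-like cells followed at 285 CPM in library 2 and 111 CPM in library 1. In library 2 the plasma cell-like cells, at 45.6 CPM, and the blood endothelial-like cells, at 35.0 CPM, came next, with overlapping intervals. In library 1 the blood endothelial-like cells came next, at 43.0 CPM, and every other named class of at least 50 cells had at most 10.4 CPM. The unnamed cells had 12.4 CPM in library 2, against 13.7 CPM in library 1.

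**Figure D1:**
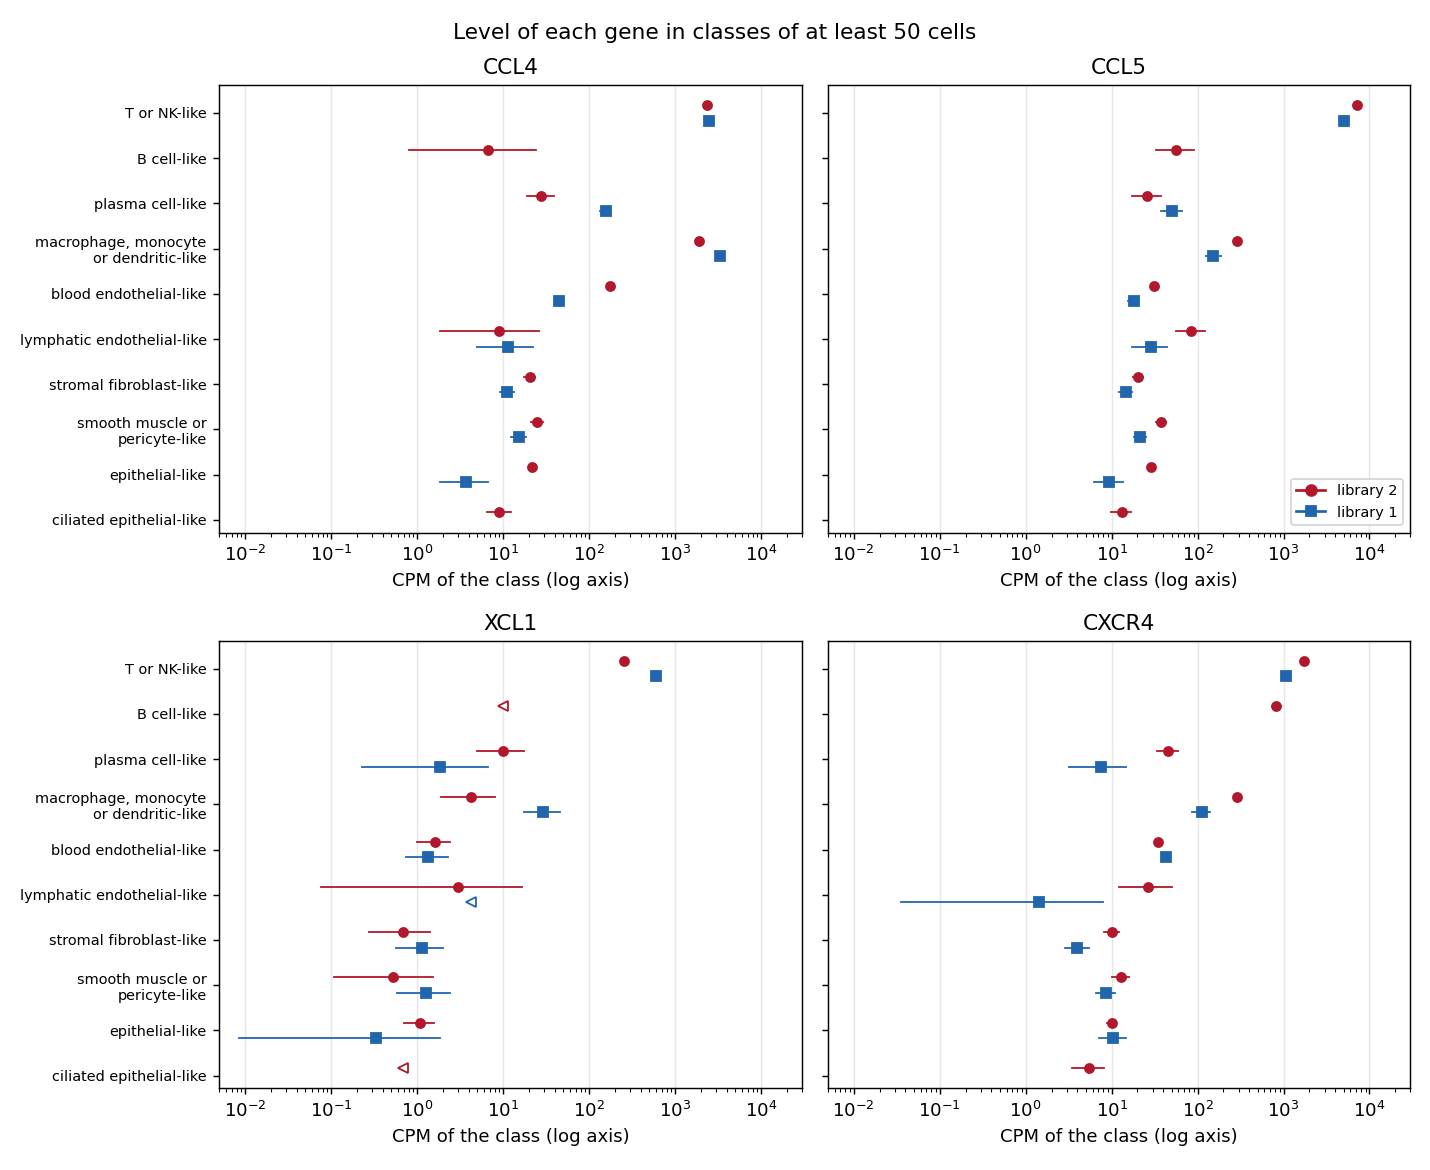
CPM (log axis) of CCL4, CCL5, XCL1 and CXCR4 in classes of at least 50 cells, with library 2 (circles) above library 1 (squares); bars are 95% Poisson intervals and open triangles mark the level of 3 UMIs where a class had 0. T or NK-like cells are highest for CCL5, XCL1 and CXCR4 in both libraries, whereas CCL4 in macrophage, monocyte or dendritic-like cells, at 1882 CPM, is below T or NK-like cells in library 2 and, at 3364 CPM, above them in library 1.

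Droplets also hold free RNA, whose amount was not measured, so shares of cells are set beside those of stromal fibroblast-like cells, a non-immune class. Whether stromal fibroblast-like cells make some of these transcripts themselves was not tested. With every cell thinned to 1000 UMIs, CCL4 was found in 46.4% of T or NK-like cells of library 2 and 28.2% of those of library 1, against 1.59% and 1.30% of stromal fibroblast-like cells. CCL5 was found in 61.3% and 53.5% of T or NK-like cells, against 0.983% and 1.15% of stromal fibroblast-like cells. XCL1 was found in 16.6% and 25.8%, against 0.0936% and 0.0961%, and CXCR4 in 64.9% and 38.0%, against 0.608% and 0.432%. Other non-immune classes differed from the stromal share, with CCL5 in 2.52% of smooth muscle or pericyte-like cells and 5.48% of lymphatic endothelial-like cells of library 2. The stromal UMIs were uneven, since the 1% of stromal fibroblast-like cells of library 2 with the most UMIs of a gene held 53.9% of their CCL4 UMIs and 64.7% of their CCL5 UMIs. Thinning used 754 of 833 T or NK-like cells of library 2 and 376 of 477 of library 1. Before thinning the shares of T or NK-like cells were 53.2% and 29.6% for CCL4, 63.1% and 55.1% for CCL5, 25.7% and 29.1% for XCL1, and 73.9% and 41.5% for CXCR4, at median depths of 1667 UMIs in library 2 and 1320.0 UMIs in library 1. Stromal fibroblast-like cells were deeper, at medians of 4482 and 4368 UMIs.

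The balance of CCL4 to CCL5 separated the sources. There were 0.333 CCL4 UMIs per CCL5 UMI in T or NK-like cells of library 2 and 0.488 in those of library 1, but 6.52 and 22.0 in macrophage, monocyte or dendritic-like cells. The stromal, muscle and epithelial classes lay between 0.657 and 1.01 in library 2 and between 0.393 and 0.761 in library 1. Blood endothelial-like cells were above that range, with 5.50 in library 2 and 2.48 in library 1, and so were plasma cell-like cells, with 1.07 and 3.11. Lymphatic endothelial-like cells had 0.107 and 0.400, and B cell-like cells of library 2 had 0.118, each from at most 31 UMIs of the pair.

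In a comparison of T or NK-like cells between libraries, XCL1 was the gene past 2-fold. It had 388 UMIs in library 2 and 420 in library 1 and was 2.34-fold lower in library 2 (log2 ratio -1.23, -1.43 to -1.02). CXCR4 was 1.65-fold higher (log2 ratio 0.72, 0.60 to 0.84) and CCL5 was 1.40-fold higher (0.48, 0.43 to 0.54), or 0.18 on the log2 scale with each cell weighted equally. The CCL4 ratio was -0.07 on the log2 scale, with an interval of -0.15 to 0.01 that includes 0; in cells thinned to 1000 UMIs it was -0.18 (-0.29 to -0.07). Between these 2 libraries a 2-fold difference was common: 34.6% of 10607 genes were past it in these cells, 23.4% higher and 11.2% lower in library 2, and the median gene was at 0.15. Among the 4 genes, 1 was past it, a share below that of all genes.

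At nearly the same CPM, CCL4 was spread over more T or NK-like cells in library 2 than in library 1. The 10% of these cells with the most CCL4 held 54.8% of its UMIs in library 2 and 82.9% in library 1, and the highest cell had 63 UMIs in library 2 and 88 in library 1. CXCR4 was also more even in library 2, where the top 10% held 34.0% of its UMIs, against 57.3% in library 1. The other pair did not show this, with 42.3% in library 2 and 38.2% in library 1 for CCL5 and 66.2% and 65.0% for XCL1.

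Other measures of these cells differed between the libraries too. Ribosomal protein genes took 10.0% of the UMIs of T or NK-like cells in library 2 and 17.1% in library 1, genes with very long introns took 0.167% and 0.0258%, and immediate early and dissociation stress genes took 1.55% and 1.96%. The summed level of 13 stromal fibroblast markers was 906.5 CPM in T or NK-like cells of library 2 and 2256 CPM in those of library 1, and that of 12 smooth muscle or pericyte markers was 227 and 855 CPM. Of 18 macrophage, monocyte or dendritic cell markers, 13 were detected in library 2 and 12 in library 1, with summed levels of 1735 and 1909.8 CPM. Most of that sum was FCGR3A, which NK cells also express, at 1534 and 1636 CPM, and MRC1, FCGR1A, MARCO and VSIG4 were at 0 in both libraries. The part of these measures in the ratios was not tested.

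Macrophage, monocyte or dendritic-like cells lay in the same 2 clusters in both libraries, with 469 and 56 cells in library 2 and 173 and 8 cells in library 1. CCL4 was lower there in library 2, at 1882 CPM against 3364 CPM in library 1 (log2 ratio -0.84, -0.91 to -0.76). CCL5 was higher, at 289 against 153 CPM (0.92, 0.61 to 1.24), and CXCR4 was higher past 2-fold, at 285 against 111 CPM (1.36, 1.00 to 1.73). XCL1 was past 2-fold lower, from 9 UMIs in library 2 and 19 in library 1. Thus 2 of the 4 genes were past 2-fold, in a class where 34.8% of 11397 genes were.

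Blood endothelial-like cells had the highest CCL4 ratio among the classes compared. There were 2398 CCL4 UMIs in 2552 cells of library 2 and 467 in 2561 cells of library 1, which was 3.85-fold higher (log2 ratio 1.95, 1.80 to 2.09), in a class where 40.7% of 15342 genes were past 2-fold and 24.0% were past it upward in library 2. It was the only 1 of the 4 genes past 2-fold there. After thinning, 8.34% of the cells of library 2 and 2.92% of those of library 1 had CCL4. These cells formed separate clusters in the 2 libraries. In the ACKR1- and SELP-led clusters, where these genes mark venules, CCL4 was 154 CPM in library 2 and 36.6 CPM in library 1, and in the SEMA3G- and GJA5-led clusters, with genes of arterial endothelium, it was 118 and 65.2 CPM. The GPIHBP1-, FLT1- and KDR-led cluster of library 2 had 226 CPM. In the ACKR1- and SELP-led cluster of library 2, PTPRC, a gene of all leukocytes, was found in 11.5% of the 260 cells with CCL4 and 8.54% of the 1007 cells without it, with overlapping intervals, at 18.2 and 18.1 CPM. The macrophage, monocyte or dendritic cell marker TYROBP was higher in the cells with CCL4, at 3.94 against 1.29 CPM, from 8 and 7 UMIs. C1QB was also higher there, at 9.36 against 4.25 CPM, whereas CCL5 was at 11.8 against 12.9 CPM. The endothelial gene PECAM1 was at 712 CPM in the cells with CCL4 and 638 CPM in those without. In the matching cluster of library 1, PTPRC was found in 7.30% of 137 cells with CCL4 and 1.82% of 1755 cells without it. Cells with CCL4 were also deeper in these ACKR1- and SELP-led clusters. Their medians were 6514 against 4557 UMIs in library 2 and 3695 against 2889 UMIs in library 1. In the GPIHBP1-, FLT1- and KDR-led cluster, PTPRC was found in 20.5% of 205 cells with CCL4 and 10.9% of 788 without it. In the SEMA3G- and GJA5-led clusters it was found in 34.9% against 14.4% in library 2 and 9.68% against 2.31% in library 1. Cells with CCL4 were deeper in these other clusters too. The part of leukocyte RNA in these values was not tested further.

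CXCR4 in blood endothelial-like cells was slightly lower in library 2 (log2 ratio -0.30, -0.49 to -0.11), and it was uneven among clusters. The SEMA3G- and GJA5-led clusters had 61.1 CPM in library 2, against 75.0 CPM in library 1. The ACKR1- and SELP-led clusters had 9.80 CPM in library 2, against 29.6 CPM in library 1, and the GPIHBP1-, FLT1- and KDR-led cluster of library 2 had 65.3 CPM.

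Ratios in the other classes rested on fewer UMIs. In plasma cell-like cells CCL4 was 27.7 CPM in library 2, from 31 UMIs, against 157 CPM in library 1, from 168 UMIs, of which 1 cell held 52. CXCR4 ran the other way there, with 51 UMIs in library 2 and 8 in library 1 (log2 ratio 2.61, 1.53 to 3.90). In that class 38.5% of 9094 genes were past 2-fold. Lymphatic endothelial-like cells had 28 CCL5 UMIs in library 2 and 20 in library 1 (1.56, 0.68 to 2.46), where 34.6% of 9467 genes were past 2-fold. In stromal fibroblast-like cells CXCR4 was past 2-fold, at 101 UMIs in library 2 and 39 in library 1 (1.32, 0.78 to 1.89), and so were 47.3% of 16394 genes. As in blood endothelium, these last classes lay mostly in different clusters in each library: the stromal cells of library 2 in clusters of 1156 and 1009 cells and those of library 1 in clusters of 1093 and 1147, and the lymphatic cells in a cluster of 70 cells of library 2 and a cluster of 211 cells of library 1.

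**Figure D2:**
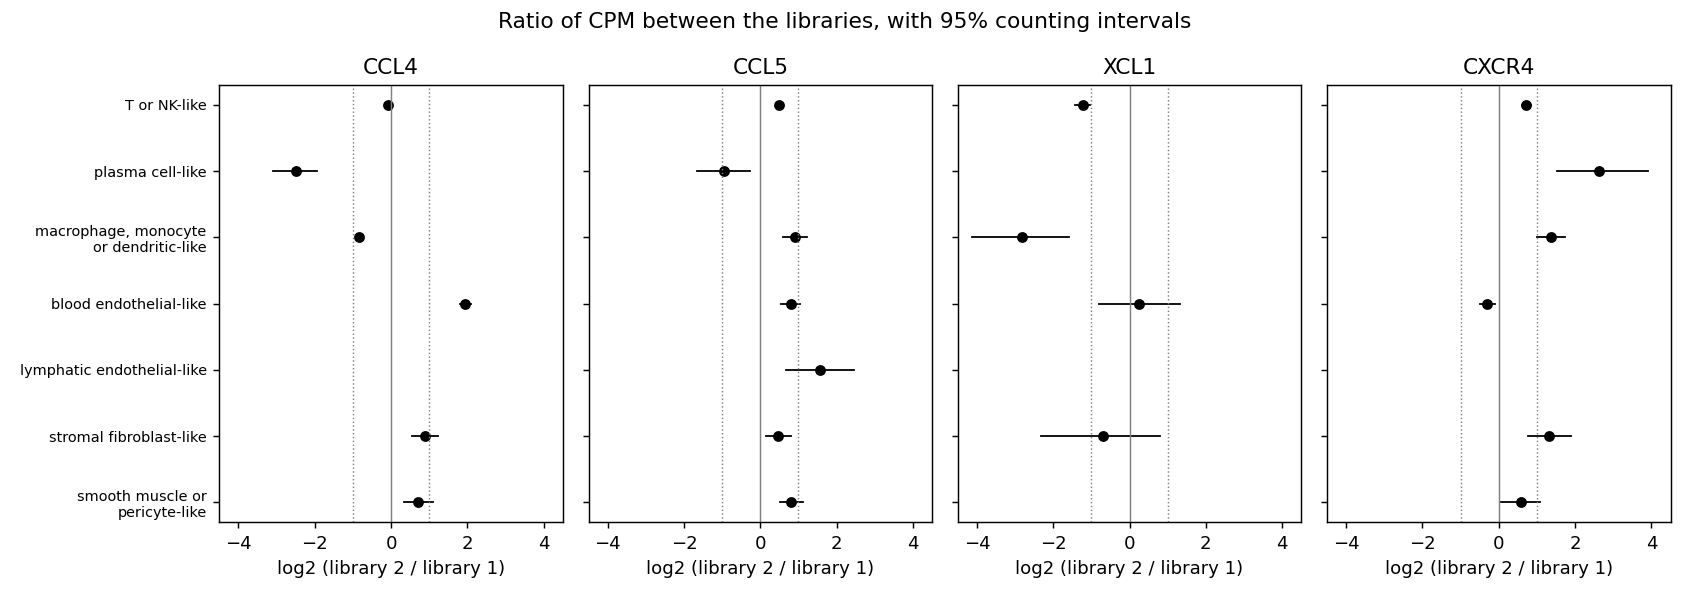
Log2 ratio of CPM in library 2 over library 1 for each gene and class, shown where both libraries had more than 3 UMIs; bars are 95% counting intervals and dotted lines mark a 2-fold difference. XCL1 in T or NK-like cells lies at -1.23, CCL4 lies at 1.95 in blood endothelial-like cells and at -0.84 in macrophage, monocyte or dendritic-like cells.

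T or NK-like cells were then split within each library, again without the chemokine genes, and sub-clusters are called by their leading genes. In library 2, the NCR1- and KLRB1-led cells, with receptors of NK cells, were 231 cells and had the highest CCL4 (3902 CPM), CCL5 (14392 CPM) and XCL1 (489 CPM) of any sub-cluster. They held 53.5% of the class's CCL4 UMIs, 65.7% of its CCL5 UMIs and 61.9% of its XCL1 UMIs, with 27.7% of its cells. CXCR4 had another order. It was highest in the 173 cells led by CD40LG, TNFRSF18 and ICOS, genes of helper and regulatory T cells, at 2776 CPM against 1515 CPM in the NCR1-led cells, and there CCL4 was only 165 CPM, CCL5 482 CPM and XCL1 25.7 CPM.

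The other sub-clusters of library 2 had further combinations. The 256 cells led by gzmM, gzmK and CD8A, genes of cytotoxic T cells, had 3232 CPM of CCL4, 5808 CPM of CCL5, 275 CPM of XCL1 and 1820.0 CPM of CXCR4. The 57 cells led by ADGRG1, LY6D and S1PR5 had 8225 CPM of CCL5 but only 95.1 CPM of XCL1 and 645 CPM of CXCR4. The 78 cells led by MYL4, BACH2 and LEF1 had 1690.1 CPM of CXCR4, with 298 CPM of CCL4, 234 CPM of CCL5 and 42.6 CPM of XCL1. CXCR4 was 951.9 CPM in the 28 cells led by RHEX and CD163L1 and 362 CPM in the 10 cells led by PCLAF and UBE2C, which had 984 and 8321 CPM of CCL5.

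In library 1 the 122 cells led by IFNG, TNF, NR4A2 and EGR2, a set that includes immediate early genes, had 7701 CPM of CCL4 and held 73.6% of the class's CCL4 UMIs and 66.2% of its CXCR4 UMIs. CXCR4 was 2936 CPM there, against 265 to 609.5 CPM in the other sub-clusters of library 1. The summed immediate early and stress genes were 34115 CPM in these cells and between 9725 and 24431 CPM in the others. The 58 NCR1-led cells of library 1 had the highest CCL5 (13503 CPM) and XCL1 (1895 CPM) of that library. The largest sub-cluster, 202 cells, was led by the muscle genes TAGLN and MYL9 and had 652 CPM of CCL4, 2067 CPM of CCL5, 307 CPM of XCL1 and 609.5 CPM of CXCR4. The 29 cells led by FCER1A and CSF2 had 0 CCL4 UMIs (3 UMIs would be 41.9 CPM), 1 XCL1 UMI and 0 CPM of CD3D. NCR1, KLRK1, PRF1, EOMES and TBX21 were at 0 CPM there too, though CD247 was at 181 CPM and KLRB1 at 126 CPM. Mean levels of T cell markers and of NK markers were the lowest among the sub-clusters of library 1. The T or NK-like name thus suits these cells poorly, but they were kept in the class.

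**Figure D3:**
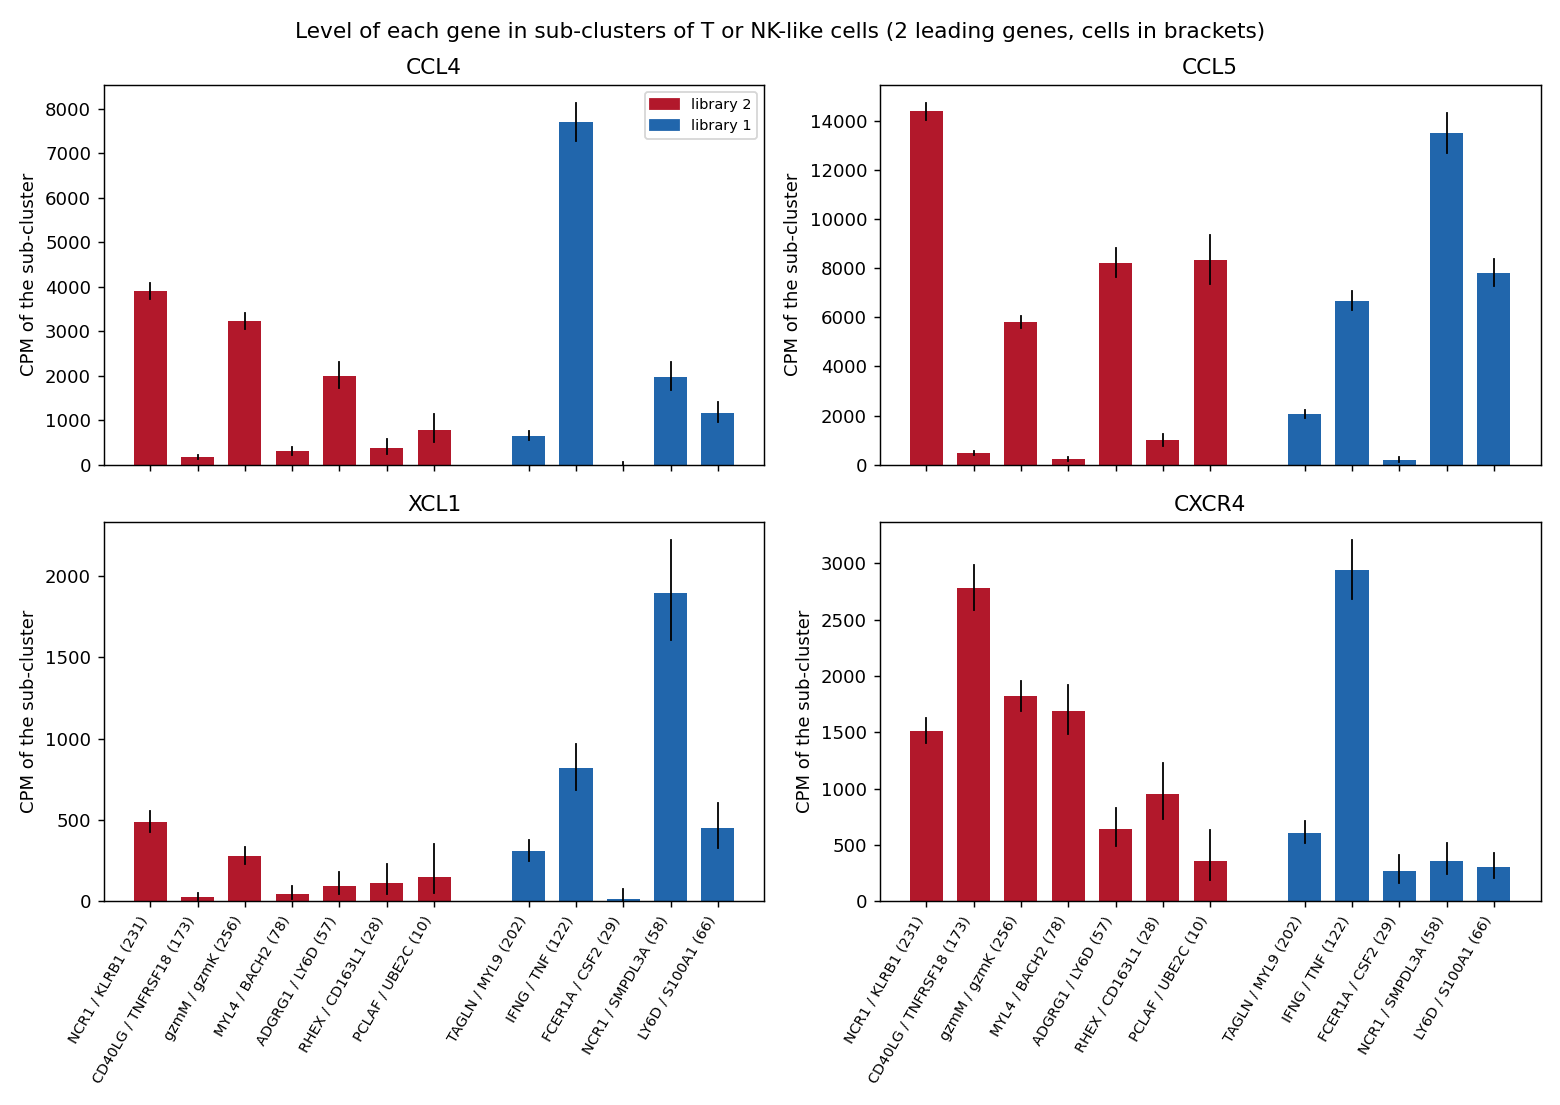
CPM of each gene in the sub-clusters of T or NK-like cells, library 2 left of library 1; labels give 2 leading genes and the number of cells, and bars are 95% Poisson intervals. CCL5 is highest in the NCR1-led cells of both libraries, at 14392 CPM in library 2 and 13503 CPM in library 1, while XCL1 in these cells is 489 CPM and 1895 CPM.

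Across the libraries, 2 pairs of sub-clusters shared at least 3 of their 10 leading genes, the NCR1-led cells and the S1PR5- and ADGRG1-led cells. Within both pairs CCL5 was close to equal, with log2 ratios of 0.09 (-0.00050 to 0.19) and 0.08 (-0.07 to 0.22). XCL1 was 3.88-fold lower in the NCR1-led cells of library 2 (log2 ratio -1.96, -2.25 to -1.65) and lower in its S1PR5- and ADGRG1-led cells, from 9 UMIs in library 2 and 45 in library 1 (-2.25, -3.47 to -1.20). CXCR4 was 4.19-fold higher in the NCR1-led cells of library 2 (2.07, 1.53 to 2.66) and higher in the S1PR5- and ADGRG1-led cells (1.10, 0.44 to 1.78). CCL4 was higher in both, at 0.98 (0.74 to 1.22) and 0.78 (0.43 to 1.12). After thinning, XCL1 was found in 35.4% of NCR1-led cells of library 2 and 68.1% of those of library 1, CCL4 in 70.3% and 19.1%, and CXCR4 in 63.2% and 19.1%. NCR1-led cells were 27.7% of the T or NK-like cells of library 2 and 12.2% of those of library 1. The paired cells were not alike in all markers. In the NCR1-led cells CD8A was 40.7 CPM in library 2 and 337 CPM in library 1, and NCR1 was 916 and 362 CPM. The parts of differences within sub-clusters and of a different mix of them in the ratios of the whole class were not tested.

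The 3 ligands were found together in single cells, and CXCR4 followed CCL4 in library 1 more than in library 2. After thinning, CCL5 was found in 88.8% of XCL1-positive cells of library 2, against 55.8% of XCL1-negative cells, and in library 1 in 89.7% against 40.9%. CCL4-positive cells had CCL5 in 87.4% of cases in library 2, against 38.6% of CCL4-negative cells, and in library 1 in 92.5% against 38.1%. CXCR4 was found in 66.9% of CCL4-positive and 63.1% of CCL4-negative cells of library 2, where the intervals overlapped, and in 54.7% against 31.5% in library 1. All 4 genes were found in 6.63% of cells of library 2 and 6.12% of library 1, and none in 10.2% and 27.9%.

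**Figure D4:**
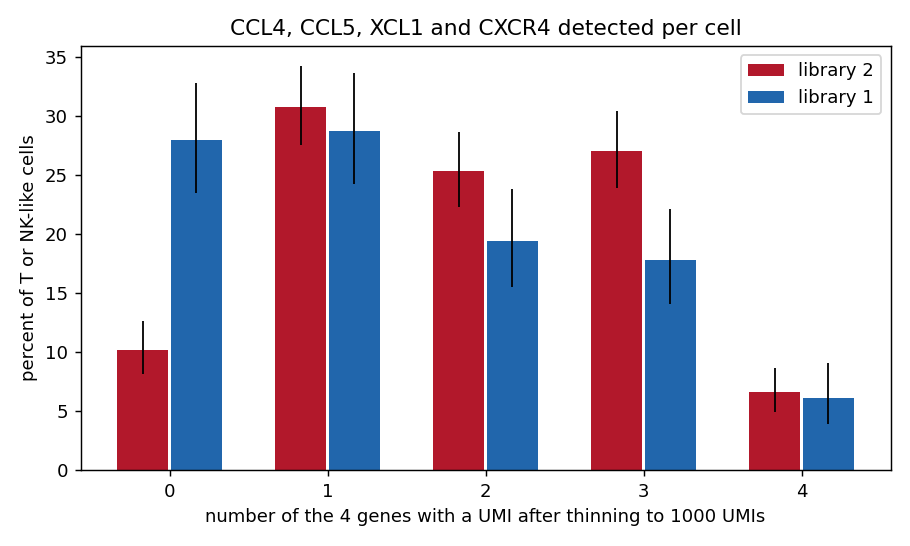
Percent of T or NK-like cells, thinned to 1000 UMIs (754 cells of library 2, left bars, and 376 cells of library 1, right bars), by the number of the 4 genes with a UMI; vertical lines are 95% Clopper-Pearson intervals. Cells with none were 10.2% in library 2 and 27.9% in library 1, whereas cells with all 4 were 6.63% and 6.12%.

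Receptors were described for XCL1 and CCL5. XCR1, the XCL1 receptor, was concentrated in the cluster led by AIF1, DNASE1L3, IRF8 and FLT3, which held 89.6% of its 125 UMIs in library 2 and 97.1% of its 35 UMIs in library 1. It was found in 52 of 56 cells of that cluster in library 2 and in 8 of 8 in library 1. As a listed receptor, XCR1 was used neither to form the clusters nor to name the class. XCR1 had 57.7 CPM over the class in library 2 and 52.5 CPM in library 1, and T or NK-like cells had 0 XCR1 UMIs in both libraries, where 3 UMIs would be 1.99 and 4.30 CPM. CCR1, a receptor of CCL5, was at 13.0 CPM in macrophage, monocyte or dendritic-like cells of library 2 and 24.7 CPM in those of library 1.

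CXCL12, the CXCR4 ligand, was highest in non-immune classes and differed in place between the libraries. Smooth muscle or pericyte-like cells were highest in library 2, at 165 CPM, and blood endothelial-like cells were highest in library 1, at 249.5 CPM. The difference was large in the SEMA3G- and GJA5-led endothelial clusters, which had 93.7 CPM (79.9 to 109) in library 2 and 649.7 CPM (621 to 679) in library 1. T or NK-like cells had 4.64 and 4.30 CPM. Plasma cell-like cells had 1.79 CPM in library 2 but 43.8 CPM in library 1, above the stromal fibroblast-like cells of library 1 at 28.4 CPM. ACKR3, the CXCL12 scavenger, was highest in stromal fibroblast-like cells of library 2, at 202 CPM, and in lymphatic endothelial-like cells of library 1, at 269 CPM.

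**Figure D5:**
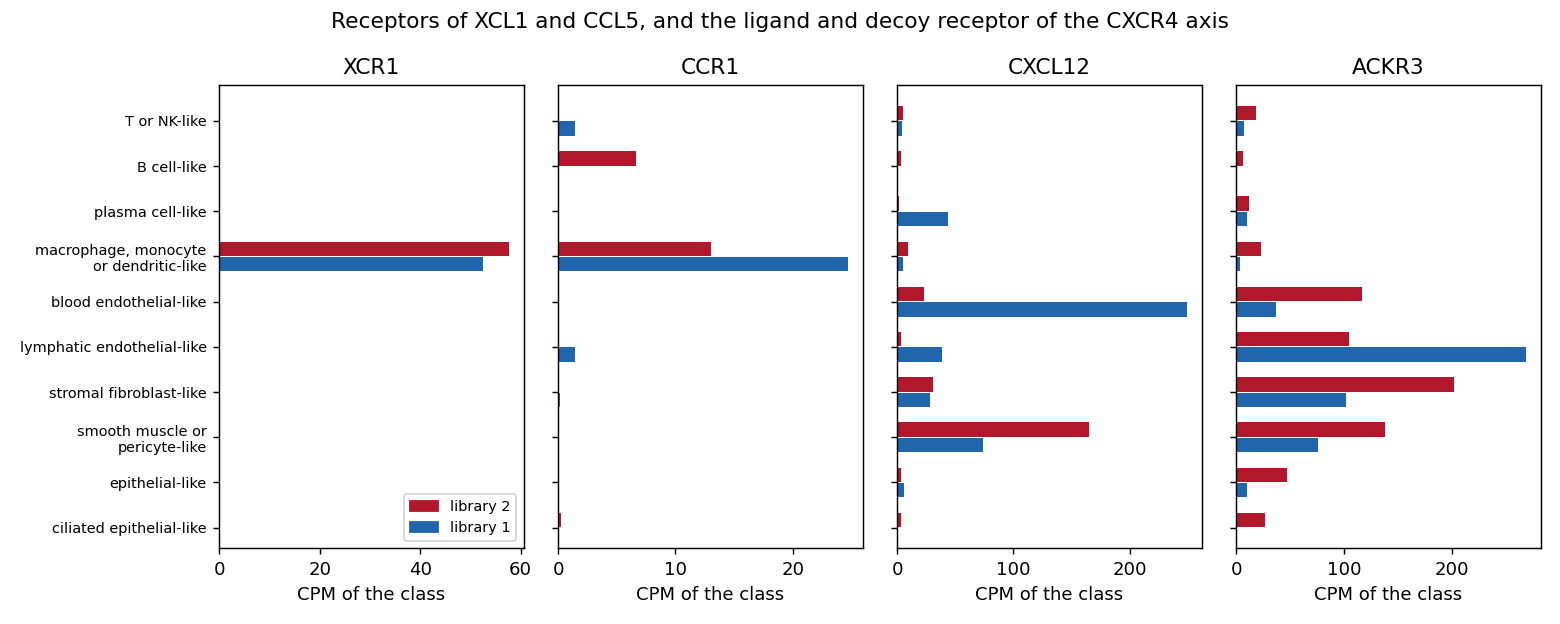
CPM of XCR1, CCR1, CXCL12 and ACKR3 by class, with library 2 above library 1 in each class. XCR1 is highest in macrophage, monocyte or dendritic-like cells, at 57.7 CPM in library 2 and 52.5 CPM in library 1, and CXCL12 is highest in smooth muscle or pericyte-like cells of library 2 and in blood endothelial-like cells of library 1.

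Among all listed chemokine ligands with at least 10 UMIs in their highest class, CCL5 and XCL1 were highest in T or NK-like cells in both libraries and CCL4 in library 2 only, that is 3 of 18 ligands in library 2 and 2 of 16 in library 1. Macrophage, monocyte or dendritic-like cells were the highest class for 6 ligands in library 2 and 8 in library 1, CCL8, CXCL8, CXCL9, CXCL10, CXCL13 and CXCL16 in both. CXCL10, an interferon-induced ligand of CXCR3, had 3351 CPM there in library 2 and 179 CPM in library 1. Of the receptors, CCR4, CXCR3, CXCR4 and CXCR6 were highest in T or NK-like cells in both libraries. CXCR3 had 88.1 and 86.0 CPM there, far below CXCR4.

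The lists of related genes were counted in T or NK-like cells as the members past 2-fold, beside 23.4% of all genes higher and 11.2% lower. Of 11 ligands measured, 3 were higher and 2 lower in library 2 (median log2 ratio 0.11). Of 11 receptors, 2 were higher and 3 lower (median -0.70). CX3CR1, a receptor of patrolling cytotoxic lymphocytes and monocytes, was among the lower ones, at 7.95 CPM in library 2 and 67.3 CPM in library 1. Of 14 genes of the CXCR4 axis, 5 were higher and 1 lower (median 0.75). They included JAK2, a kinase of cytokine receptors, at 195.5 against 45.8 CPM in library 1. GRK5, a receptor kinase, was at 231 against 58.7 CPM, and RGS2, a brake on G protein signals, at 259 against 102 CPM. The axis list also had medians of 0.82 in macrophage, monocyte or dendritic-like, 1.00 in stromal fibroblast-like and 0.86 in smooth muscle or pericyte-like cells. In plasma cell-like, blood endothelial-like and lymphatic endothelial-like cells its medians were 0.67, 0.16 and -0.05.

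Of 13 effector genes, 2 were higher and 6 lower (median -0.94). The granzyme gzmK had 439 CPM in library 2, against 98.9 CPM in library 1, while the cytokines IFNG and CSF2 had 103 and 8.61 CPM in library 2, against 295 and 60.2 CPM in library 1. In library 1 IFNG was 788 CPM in the 122 cells it led. CSF2 was a leading gene of the 29 cells without CD3D, which the class name suits poorly. Of 7 genes of retention and homing, 0 were higher and 3 lower (median -0.48), with CD69, which opposes exit from tissue, at 468 CPM in library 2 and 944 CPM in library 1. The lymphocyte exit receptor S1PR5 had 9.28 and 53.0 CPM, whereas S1PR1 had 111 and 58.7 CPM, within 2-fold. Of 26 immediate early and stress genes, 1 was higher and 6 lower (median -0.19), and of 15 proliferation genes 2 were higher and 3 lower (median -0.40). Of 62 ribosomal protein genes 0 were higher and 30 lower (median -0.93), and of 14 genes with very long introns 13 were higher and 1 lower (median 2.59).

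Genes whose levels followed the 4 genes most closely were found by rank correlation over 18 points of class and library, among 5809 genes; the points share libraries, so the values are a description. CCL4 was nearest to FCER1G (rho 0.84), gzmM, FCER1A, DPP4 and LY6D. CCL5 was nearest to PTPRC (rho 0.90), GPR18, RGS1, FCGR3A and TNFSF9. XCL1 was nearest to DOK2 (rho 0.79), CCL4, GFI1, LY6D and gzmM, and CXCR4 to NKG7 (rho 0.85), STK4, STK17A, INPP5D and NFKB2. Among the 4 genes themselves, rho was highest between CCL4 and XCL1 (0.78) and lowest between CCL4 and CXCR4 (0.53).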

How the data were processed

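The authors deposited a matrix of raw UMI counts for each library. Per the file headers the software was Cell Ranger 6.1.0, but Cell Ranger 2.1.1 stands in the submitters' processing notes. Genome build and intron handling: not given in the sources used here. Symbols came from the deposited feature tables, which give 10753 of 26881 rows a symbol. In the RefSeq annotation of Sscrofa11.1, 5 protein-coding genes, CCL3L1 among them, lie between CCL4 and CCL5, and reads of near-identical CC chemokines that the counting could split leave CCL4 uncertain.

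Cells needed 500 UMIs and 200 genes, and Scrublet (scanpy 1.11.5, seed 1) removed 2423 barcodes (16.1%) of library 2 and 1112 (11.1%) of library 1 as doublets. Leiden clusters (igraph 0.11.9, resolution 1) were built on 15 neighbours in 30 principal components of 2000 variable genes, without integration and without 41 chemokine and receptor genes. T or NK-like cells were split again in each library with 20 components at resolution 0.5. A class name needed at least 3 markers, a mean log2 fold of 0.5 over the other cells (pseudocount 20 CPM) and a lead of 0.25 on the second-best class. This rule and the pairing of sub-clusters were chosen after the data were seen, and 29 of 32 clusters were named. The members, markers and lists were chosen with earlier results of these data known. Of 265 marker entries, 165 had a symbol, and of 205 list entries, 138.

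UMIs were summed per library and class. CPM have exact Poisson intervals, shares exact Clopper-Pearson intervals and ratios exact conditional binomial intervals, all at 95%. Counts under 3 UMIs over a class were set to 3 in ratios. A 2-fold difference was counted for genes with at least 10 UMIs in the 2 sums. Named genes were the 4 members in classes of at least 50 cells, the 5 nearest genes by rank correlation, listed chemokines and receptors by their highest class, and up to 3 genes of each other list with the largest ratio and at least 50 CPM. Other named genes mark clusters or the partners of the 4 genes and were chosen after their values were seen. Epithelial-like cells were not compared between libraries, since a cluster of theirs was led by more markers of another class than of its own. On simulated counts for T or NK-like cells with 10607 genes, the intervals held the true ratio for 96.8% of genes. This does not cover spread between cells or animals, which the intervals leave out. Alternatives were a stricter cell filter, doublets kept, other resolutions, separate clustering, chemokine genes allowed, thinning, TMM (edgeR 4.0.16) and median-of-ratios scaling, equal cell weights and other count minimums.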

Additional observations from a re-analysis of the deposited data

Results flagged for a closer look

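Ratios are set side by side here for classes with at least 10 UMIs of a gene in each library and an interval that excluded 0. They ran in opposite directions for 3 of the 4 genes, and these differences between classes were not tested. For XCL1, blood endothelial-like cells were at 0.24 (-0.79 to 1.32), from 22 UMIs in library 2 and 14 in library 1, an interval that includes 0. XCL1 also did so if fewer UMIs are allowed, at 1.82 (0.20 to 5.62) in plasma cell-like cells, from 11 UMIs in library 2 and 2 in library 1, the second set to 3, against -1.23 in T or NK-like cells. CCL4 had a log2 ratio of library 2 over library 1 of 1.95 in blood endothelial-like cells, against -2.50 in plasma cell-like cells, where 31 UMIs in library 2 and 168 in library 1 were counted and 1 cell of library 1 held 52 of them. CCL5 had 1.56 in lymphatic endothelial-like cells, from 28 and 20 UMIs, against -0.96 in plasma cell-like cells, from 29 and 54 UMIs. CXCR4 had 1.36 in macrophage, monocyte or dendritic-like cells, against -0.30 in blood endothelial-like cells. Of 9094 genes in plasma cell-like cells, 38.5% were past 2-fold, and in lymphatic endothelial-like cells 34.6% of 9467.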

How the results depend on the processing

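Each library was 1 animal, so no spread between animals was measured. No paired analysis was possible because each group held 1 library. Of 106 recomputed values, 85 stayed within the limits set for them and 21 moved. The values were log2 ratios, shares of UMIs and counts of genes past 2-fold. Only the log2 ratios have a direction, and 0 of them changed it. With cells thinned to 1000 UMIs, the log2 ratio in T or NK-like cells was -0.18 for CCL4, 0.29 for CCL5 and -1.46 for XCL1; with each cell weighted equally it was -0.17 for CCL4 and 0.18 for CCL5. Thinning gives every cell the same total by construction, and the share of UMIs in T or NK-like cells was then 54.1% in library 2 and 53.8% in library 1 for CCL4, 91.9% and 92.9% for CCL5, 93.1% and 95.3% for XCL1, and 76.6% and 71.9% for CXCR4. The stricter filter gave shares in library 1 of 34.0% for CCL4, 80.7% for CCL5 and 48.2% for CXCR4. Keeping doublets gave 37.8% for CCL4 in library 1, 79.2% and 85.5% for CCL5 in libraries 2 and 1, and 56.9% for CXCR4 in library 2. With at least 50 UMIs, 2015 of 6363 genes were past 2-fold, since fewer genes were tested. TMM scaling moved all ratios by less than 0.01. XCL1 rested on at most 25 UMIs in any class other than T or NK-like cells.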
